A study of Mus musculus with 2 samples.

Results

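The clustered histone genes were described in tissue taken from mouse embryos at embryonic day 10.5, above and below the dorsal aorta, a region where the first blood stem cells arise. A gene was a member if its current symbol was that of a numbered linker (H1f), H2A (H2ac), H2B (H2bc), H3 (H3c) or H4 (H4c) gene. The choice was made by name alone, pseudogenes were left out, and 49 of 24675 named genes qualified: 9 H1, 12 H2A, 13 H2B, 7 H3 and 8 H4 genes. A further feature, whose gene number RefSeq gives to the linker gene H1f0, has no symbol in the platform annotation and was left out, although its RefSeq name fits the rule. In RefSeq, 41 of them lie on chromosome 13, 5 on chromosome 3, 2 on chromosome 6 and 1 on chromosome 15. Each tissue had 1 array, an Affymetrix Mouse Gene 2.0 ST array, and both arrays carried the label of biological replicate 4. The dorsal array came from the strip between notochord and aortic roof, and the ventral array from the piece beneath the vessel. Both pieces were cut by laser from 20 µm sections of the same C57Bl/6 embryos, for which the labels give no genetic change or treatment, and the number of embryos is not stated in the labels. With 1 array per tissue there was no replicate spread, no test and no p-value, and every difference below is a description of these 2 arrays.

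Replication-dependent histone genes supply the proteins that package newly copied DNA. They lie in clusters, are transcribed mainly in S phase, and make mRNAs that end in a conserved stem-loop in place of a poly(A) tail. The stem-loop is bound by the protein Slbp, which is needed to process and translate these mRNAs. Core histones H2A, H2B, H3 and H4 form the nucleosome, and the linker histone H1 binds the DNA between nucleosomes. Many copies of a class encode identical or nearly identical proteins, so the core genes of a class largely share a common product.

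Not all members fit the name of replication-dependent histones. Of the 49, 6 are known as replication-independent or germline histones: H1f10, a linker histone found outside the clusters, the testis linker histones H1f6 and H1f7, the oocyte linker histone H1f8, and the testis pair H2ac1 and H2bc1. Only H1f10 of these 6 exceeded the background mark used here, at 4.07 in dorsal and 3.68 in ventral tissue on the log2 scale of all values below. That mark, 3.92, was set on 1360 odorant and vomeronasal receptor genes, which serve as a reference for silent genes, at the 95th percentile of their values.

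On the whole series, the 2 arrays had median values of 3.15 in dorsal and 3.02 in ventral tissue, close to background, and 13982 genes reached the floor of 3.10 on at least 1 array and were kept for counting. Their median difference, ventral minus dorsal, was -0.12. A gene whose 2 values are at least 2-fold apart is called dorsal-high or ventral-high below. Of 6 dorsal markers 3 were dorsal-high, and of 5 ventral markers 3 were ventral-high. Pax9, a sclerotome factor, read 6.15 in dorsal and 4.02 in ventral tissue, and Wt1, of the coelomic epithelium, 3.80 and 6.61. Of 8 markers of aortic endothelium and blood emergence, 5 were kept, of which 3 were ventral-high and 0 dorsal-high. These were 60.0% and 0.0%, where 9.44% and 4.88% of all kept genes were. The endothelial cadherin Cdh5 read 4.22 in dorsal and 6.64 in ventral tissue, 5.34-fold higher there, Emcn was at least 2.34-fold and Kdr at least 1.88-fold higher, and Pecam1 1.96-fold. The list's summed linear signal was 6.55 in dorsal and 7.81 in ventral tissue on the log2 scale, and the part of this in the differences of histone genes was not tested. The other 4, Runx1, Gfi1, Kit and Tek, were at background on both arrays, Runx1 at 3.68 and 3.23. The summed linear signal of the 7 erythroid genes was 13.48 in dorsal and 13.38 in ventral tissue on the log2 scale. This sum is set mostly by the globins Hba-x, Hbb-bh1 and Hbb-y. Klf1 was dorsal-high, at 5.35 against 4.25, 2.14-fold, and Alas2 at least 1.14-fold higher in ventral tissue. Gata1 and Epor were at background on both arrays. In bulk tissue, fewer cells of a type and less RNA per cell cannot be told apart.

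Of the 49 histone genes, 28 were at background on both arrays, 8 were above it on 1 array and 13 on both. Of all 24675 named genes, 7092 were above it on at least 1 array and 4752 on both, a smaller share in each case. The 28 ranged from 1.54 to 3.50. Of all 49, 29 reached the floor, and 20 did not. Among the 29, 7 were dorsal-high, 24.1%, where 4.88% of all kept genes were. In the ventral direction 3 were called, 10.3%, against 9.44% of all kept genes, a share near that background. The other 19, 65.5%, were within 2-fold, where 85.7% of all kept genes were. At a threshold of 1.5-fold, 11 of the 29 were higher in dorsal and 5 in ventral tissue, or 37.9% and 17.2%, where 15.0% and 16.3% of all kept genes were. A gene can pass the floor through the array in which it is high, so these shares describe and do not support a difference. Above the background mark on at least 1 array, 6 of 21 histone genes were dorsal-high and 3 ventral-high, or 28.6% and 14.3%, where 8.46% and 17.7% of all 7092 such genes were. The 1 dorsal call lost under this stricter mark was H4c6, whose values of 3.46 and 2.25 were both at background.

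The histone genes had a median difference, ventral minus dorsal, of -0.21 over all 49 and of -0.20 over the 29 kept, beside -0.11 over all named genes and -0.12 over all kept genes. Values were lower in ventral tissue for 34 of 49 members, 69.4%, and for 63.3% of all named genes. These medians include members at background on both arrays. Over the 21 histone genes above background on at least 1 array the median was -0.39, where it was 0.03 over all 7092 such genes. After quantile normalization the kept members' median was -0.34 beside -0.064 over all kept genes, and after loess -0.27 beside -0.003. With the floor at the background mark on the mean of both arrays it was -0.40 beside 0.05. After centring on the median of all kept genes it was -0.079 beside 0.0. Without the replication-independent or germline members, 25 were kept and their median was -0.16 beside -0.12. The genes are described by class below. A probe set's level depends on its probes as well as on its transcript, so levels of different genes are not compared as amounts.

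**Figure D1:**
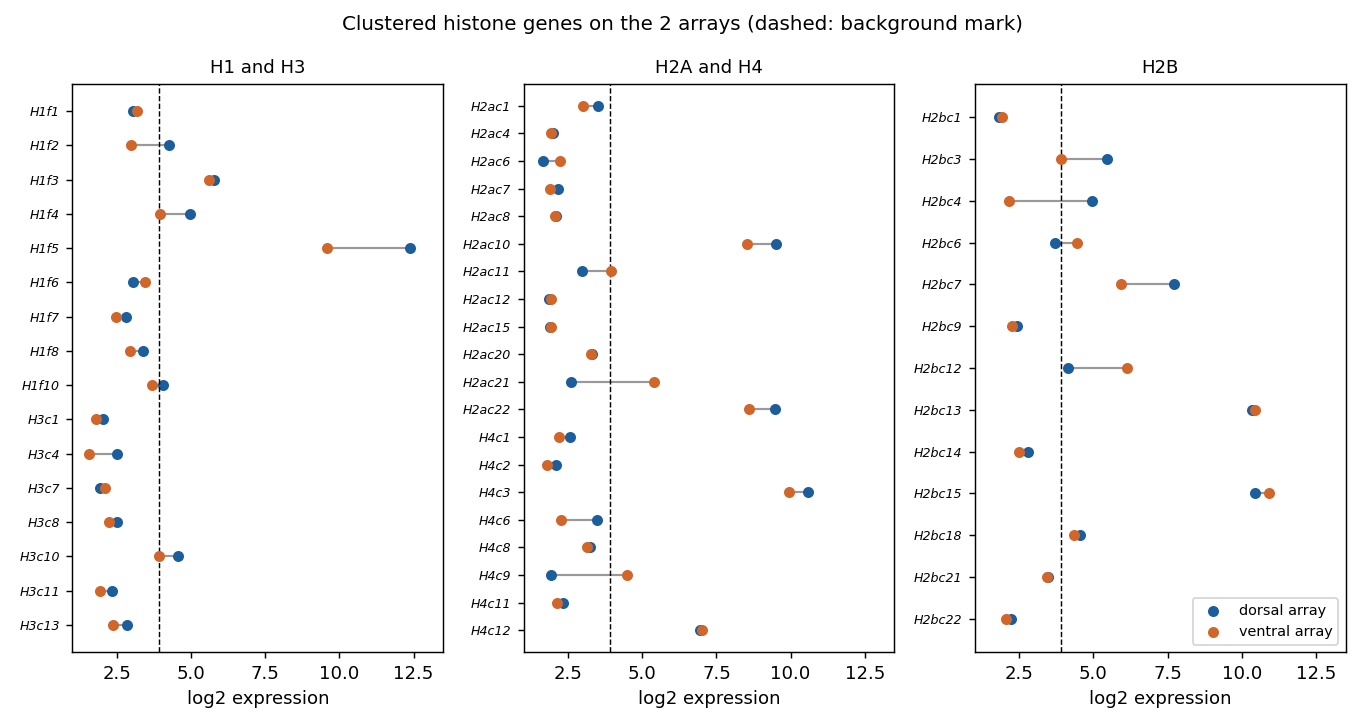
Log2 expression of all 49 histone genes in the dorsal (blue) and ventral (orange) array, by class, with a grey line joining both values of a gene and a dashed line at the background mark of 3.92. Most genes sit to the left of the mark, and H1f5, H2bc4, H2bc7, H2ac21, H4c9 and H2bc12 have wide gaps in either direction.

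All 5 linker histones above background on at least 1 array read higher in dorsal tissue, as did 3456 of all 7092 such genes. Of these 5, H1f2 and H1f10 passed the mark through the dorsal array alone. H1f10, at 4.07 and 3.68, is 1 of the replication-independent members. H1f5, the linker histone H1.5, once named Hist1h1b, read 12.40 in dorsal and 9.59 in ventral tissue, a 6.98-fold difference. This was the widest gap among the 13 members above background on both arrays, while H2bc4 and H2ac21 have 1 value at background and only a bound. H1f4, once Hist1h1e, read 4.95 and 3.94, a 2.02-fold difference. The ventral value of H1f4 lay just above background, and its difference was under 2-fold after centring, at -0.89, or a loess on level, at -0.98. H1f2, once Hist1h1c, read 4.26 in dorsal and 2.96 in ventral tissue, and as the ventral value was at background, this is at least 1.27-fold. H1f3, once Hist1h1d, was close on the 2 arrays, at 5.77 and 5.61. The last of the 5 somatic clustered linker genes, H1f1, once Hist1h1a, was at background at 3.06 and 3.18. Of the 8 kept linker genes, 3 were thus dorsal-high, 37.5% against 4.88% of all kept genes, and 0 ventral-high, against 9.44%. Their median difference was -0.42, and it was -1.01 with either floor at the background mark, which left 5 or 3 linker genes. Only H1f3 and H1f5 exceeded the receptor genes' 99th percentile of 5.48.

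The promoters of H1f5 and H1f3 are shown because these are the linker genes above the 99th percentile, the first 6.98-fold apart and the second with nearly equal values. They come from the RefSeq promoter table on GRCm38.p6 and run 5′ to 3′ along each gene's own strand, with motif matches in capitals. H1f5 lies at chr13:21780576-21780875 on the minus strand and H1f3 at chr13:23554782-23555081 on the plus strand, both ending 50 bases into the annotated transcript.
H1f5: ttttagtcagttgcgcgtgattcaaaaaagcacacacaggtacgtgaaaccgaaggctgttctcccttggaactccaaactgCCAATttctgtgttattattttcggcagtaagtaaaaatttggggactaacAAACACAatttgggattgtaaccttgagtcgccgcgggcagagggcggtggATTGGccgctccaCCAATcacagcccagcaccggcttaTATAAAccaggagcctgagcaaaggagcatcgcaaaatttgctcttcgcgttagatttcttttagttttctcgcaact
H1f3: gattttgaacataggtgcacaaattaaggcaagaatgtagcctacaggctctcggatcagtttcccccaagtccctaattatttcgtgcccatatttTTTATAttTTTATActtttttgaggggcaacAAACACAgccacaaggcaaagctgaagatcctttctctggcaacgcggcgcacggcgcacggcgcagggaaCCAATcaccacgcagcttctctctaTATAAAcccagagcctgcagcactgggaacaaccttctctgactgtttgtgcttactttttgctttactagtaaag
Searched on both strands were the letters TATAAA of the TATA box, CCAAT, the octamer ATTTGCAT and the H1 box AAACACA. In H1f5 the H1 box began 117 bases upstream of the annotated start, the nearest CCAAT 53 and TATAAA 28 bases upstream. In H1f3 the same order stood at 122, 51 and 26 bases. These 3 motifs thus lie at nearly the same distances in both promoters, but other matches differ. H1f5 holds further CCAAT matches 168 and, on the opposite strand, 66 bases upstream. H1f3 holds further TATAAA matches on the opposite strand, 153 and 145 bases upstream. Any relation of the motifs to the differences between the arrays was not tested. AAACACA was found in 5 of 9 linker windows, 55.6%, and in 7.18% of all 32851 windows of the table. A match says that the letters are there and not that a factor binds.

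H2A genes had 2 members with strong signal on both arrays, and both were somewhat higher in dorsal tissue. H2ac10 read 9.51 in dorsal and 8.54 in ventral tissue, a 1.95-fold difference, and H2ac22 read 9.48 and 8.60, a 1.84-fold difference. After quantile normalization of both columns, or a loess on level, these passed 2-fold, at -1.22 and -1.10 by quantile normalization and -1.23 and -1.15 by loess on the log2 scale. In the opposite direction, H2ac21, once Hist2h2ab, of the chromosome 3 cluster read 2.61 in dorsal and 5.38 in ventral tissue, at least 2.75-fold higher there since its dorsal value was at background. Its neighbour H2ac20 was at background at 3.32 and 3.27. H2ac11 reached the mark only in ventral tissue, at 3.93 against 2.96. The other 7 H2A genes were, like H2ac20, at background on both arrays, and 6 of the 12 did not reach the floor. H2A genes thus held both the 2 strong signals that leaned dorsal and 1 ventral-high gene. That gene was 16.7% of the 6 kept, where 9.44% of all kept genes were ventral-high.

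H2B genes differed in both directions by more than 2-fold. H2bc7, once Hist1h2bf, read 7.72 in dorsal and 5.95 in ventral tissue, a 3.41-fold difference. H2bc3 read 5.45 and 3.91, at least 2.89-fold, and H2bc4 read 4.94 and 2.16, at least 2.03-fold. These 3 were the dorsal-high H2B genes, 33.3% of the 9 kept, where 4.88% of all kept genes were. H2bc12, once Hist1h2bk, alone went as far the other way, at 4.13 in dorsal and 6.14 in ventral tissue, a 4.01-fold difference with both values above background. Above background, the H2B genes with the least separation were H2bc13, at 10.34 and 10.45, and H2bc18, at 4.54 and 4.34. H2bc15 read 10.45 and 10.91, a 1.38-fold difference. H2bc6 read 3.71 and 4.45 and passed the background mark only in ventral tissue. The remaining 5 H2B genes were at background on both arrays, and the 9 kept ones had a median difference of -0.03, which was 0.083 after centring on the median of all kept genes.

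**Figure D2:**
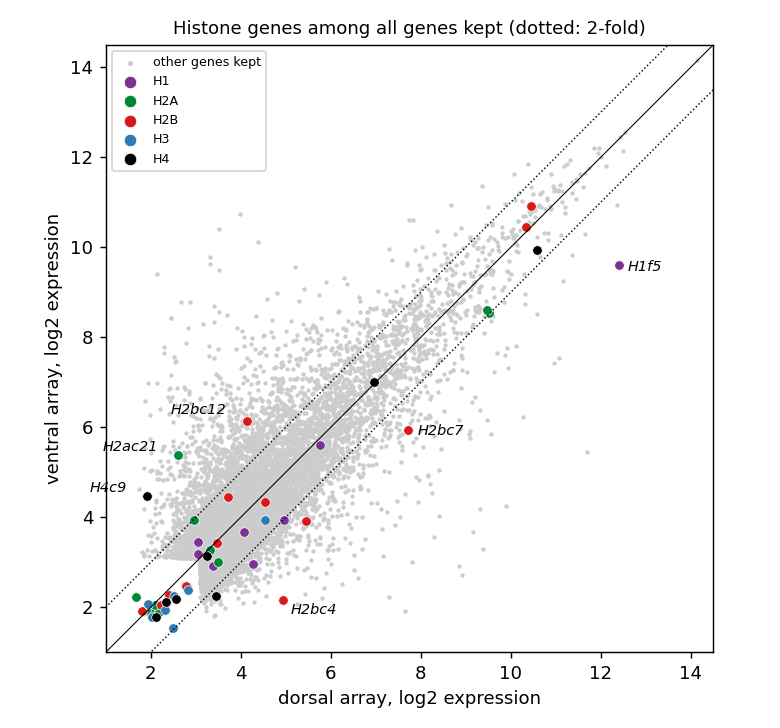
Ventral against dorsal log2 expression of the 49 histone genes, coloured by class, over the other genes kept (grey), with equality as a solid line and 2-fold as dotted lines. H1f5, H2bc7 and H2bc4 fall below the dotted band and H2bc12, H2ac21 and H4c9 above it, while most histone genes with strong signal lie within it.

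H3 and H4 genes were mostly at background. Of 7 H3 genes only H3c10 was above it, at 4.54 in dorsal and 3.93 in ventral tissue, a 1.53-fold difference. The other 6 H3 genes ranged from 1.54 to 2.84, and a difference between tissues was not detectable in them at this signal. Among the 8 H4 genes, H4c3, once Hist1h4c, read 10.57 in dorsal and 9.94 in ventral tissue, a 1.55-fold difference, and H4c12 read 6.95 and 7.01. H4c9 read 1.93 in dorsal and 4.47 in ventral tissue, at least 1.47-fold higher there with its dorsal value at background. The other 5 H4 genes were at background on both arrays. No H3 or H4 gene with both values above background was 2-fold apart.

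Some copies of a histone gene that RefSeq groups together differed from each other. The RefSeq gene table lists the symbols of some histone genes as synonyms of each other, and 5 such groups held more than 1 member. In the group of H2bc7, H2bc13 and H2bc15, the 1 group with all members above background on both arrays, differences ran from -1.77 to 0.46 on the log2 scale. Of the pair H2bc4 and H2bc6, the first was above background in dorsal tissue alone, by at least 2.03-fold, and the second in ventral tissue alone, by at least 1.45-fold. All 8 H4 genes form 1 group, of which 5 were at background on both arrays. Of the other 3, H4c3 and H4c12 differed by -0.64 and 0.06 on the log2 scale with both values above background, and H4c9 has only the bound given above. In the 2 groups of H3 genes only H3c10 was above background, so their members could not be compared. Histone paralogs can share probe sequence, so the value of any single member is uncertain. Probe sequences were not used here, and how far probes of 1 gene read its copies was not tested.

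H2A and H2B genes often lie head to head and share the stretch between their starts. In the promoter table, which held 45 of the 49 members, 5 pairs of members had windows that overlapped on opposite strands, all of them an H2A gene with an H2B gene on chromosome 13 and all pointing away from each other. In 4 of the 5 pairs 1 partner was above background and the other was not. H2bc12, the member higher in ventral tissue, starts 178 bases from H2ac12, which read 1.87 and 1.91. H2bc7, higher in dorsal tissue, starts 174 bases from H2ac7, at 2.17 and 1.90. H2bc15 starts 164 bases from H2ac15, at 1.89 and 1.94, and H2ac22 240 bases from H2bc22, at 2.23 and 2.06. All of these partner values lay below the median of the receptor genes on their array, 2.40 in dorsal and 2.28 in ventral tissue, so the files show no difference to set beside that of the neighbour. The fifth pair, the testis genes H2bc1 and H2ac1, was at background on both sides.

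**Figure D3:**
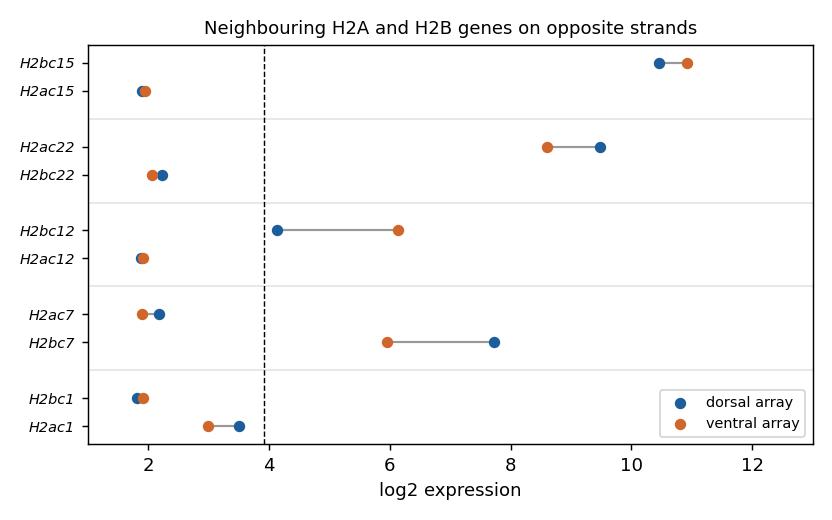
Log2 expression of the 5 pairs of neighbouring H2A and H2B genes on opposite strands, in the dorsal (blue) and ventral (orange) array, with the background mark of 3.92 dashed. In 4 pairs a single partner lies to the right of the mark, and in the pair of H2bc1 and H2ac1 neither does.

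The promoters of H2bc7 and H2bc12 are printed because these are the paired genes at least 2-fold apart, in opposite directions. H2bc7 lies at chr13:23574158-23574457 on the minus strand and H2bc12 at chr13:22035571-22035870 on the plus strand of GRCm38.p6, per the same RefSeq table. Capitals again mark the motifs named above.
H2bc7: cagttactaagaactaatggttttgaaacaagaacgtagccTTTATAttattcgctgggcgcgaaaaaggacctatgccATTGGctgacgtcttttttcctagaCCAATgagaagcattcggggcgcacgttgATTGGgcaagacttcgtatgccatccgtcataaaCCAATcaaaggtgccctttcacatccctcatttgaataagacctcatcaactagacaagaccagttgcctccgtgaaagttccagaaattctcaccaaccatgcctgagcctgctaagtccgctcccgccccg
H2bc12: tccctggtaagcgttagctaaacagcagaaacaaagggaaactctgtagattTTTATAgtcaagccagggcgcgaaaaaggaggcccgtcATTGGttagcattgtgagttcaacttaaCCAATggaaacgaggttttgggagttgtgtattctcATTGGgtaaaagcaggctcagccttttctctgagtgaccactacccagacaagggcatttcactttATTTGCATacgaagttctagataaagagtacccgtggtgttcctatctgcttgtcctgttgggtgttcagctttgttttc
The H2bc7 window holds CCAAT 4 times and the H2bc12 window 3 times, counting both strands, with the outermost 171 bases upstream of the start in H2bc7 and 160 in H2bc12. A TATAAA on the opposite strand begins 209 bases upstream in H2bc7 and 198 in H2bc12. The annotated H2A starts lie only 174 and 178 bases away, so both matches lie past them and not upstream of the H2A genes. The octamer ATTTGCAT, a known element of H2B promoters, was found in H2bc12, 30 bases upstream, and these exact letters were not in the H2bc7 window. It was present in 6 of 11 H2B windows, 54.5%, in 6 of 12 H2A windows and in 1.74% of all windows. CCAAT stood in all 12 H2A, 11 H2B and 5 H3 windows but in 2 of 8 H4 windows, against 37.4% of all windows. TATAAA stood in 62.2% of member windows and 13.6% of all windows. The H2A and H2B windows of a pair overlap by 220 to 277 bases, so their matches are in part the same letters.

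Genes that make and process histone mRNA leaned slightly to ventral tissue beside all kept genes, and by the share called less so beside genes above background. Of 28 measured, 26 were kept, with 5 ventral-high, 19.2% against 9.44% of all kept genes, and 1 dorsal-high, 3.85% against 4.88%. The list's median difference was 0.17, beside -0.12 over all kept genes. Of the 28, 22 were above background on at least 1 array, among them all 5 ventral-high genes and the 1 dorsal-high gene. Of all 7092 such genes 17.7% were ventral-high and 8.46% dorsal-high, and their median was 0.03. The list's median over the 22 was not taken. Slbp, the stem-loop binding protein, did not separate the tissues, at 6.57 in dorsal and 6.52 in ventral tissue. Npat, the coactivator of histone transcription in S phase, read 3.59 and 4.60, at least 1.61-fold higher in ventral tissue. Casp8ap2, a component with Npat of the histone locus body, read 3.92 and 4.14, its dorsal value just under the background mark. Among the factors that cut and trim histone mRNA, the endonuclease subunit Cpsf3 read 5.24 in dorsal and 6.33 in ventral tissue, a 2.13-fold difference. Eri1, an exonuclease that trims the histone mRNA end, was at least 2.21-fold higher there, at 5.07 against 3.21. Sympk, the scaffold of the cleavage complex, went the other way, 2.34-fold lower in ventral tissue, where it read 4.77 against 6.00. The cap-binding subunits Ncbp1 and Ncbp2 were 2.51-fold and 2.21-fold higher in ventral tissue. Several of these proteins also process other mRNAs.

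Histone chaperones and deposition factors, which carry new histones to DNA, had 5 ventral-high genes and 1 dorsal-high gene among 29 kept, or 17.2% and 3.45%, where 9.44% and 4.88% of all kept genes were. Their median difference was 0.29, beside -0.12 over all kept genes. Of 32 measured, 25 were above background on at least 1 array, among them all 5 ventral-high genes and the 1 dorsal-high gene. Of all 7092 such genes 17.7% were ventral-high and 8.46% dorsal-high, and their median was 0.03. The list's median over the 25 was not taken. Dnajc9, a histone H3-H4 co-chaperone, read 7.60 in dorsal and 9.14 in ventral tissue, a 2.92-fold difference. Rbbp7, a histone-binding WD-repeat protein, was 2.63-fold higher at 8.79 against 7.39, and Asf1a, a chaperone of H3 and H4, 2.09-fold. Ipo7, an importin that takes part in histone import, was 2.47-fold higher there, and Mms22l, of a complex at damaged replication forks, at least 1.32-fold. Ipo9, the importin of H2A and H2B, read 8.20 in dorsal and 6.62 in ventral tissue, a 2.98-fold difference, and was the 1 dorsal-high gene of the list.

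The list of histone variants made outside S phase had 3 of 11 kept genes dorsal-high, 27.3% against 4.88% of all kept genes, and 0 ventral-high, against 9.44%. The 3 calls include H4f16, which may not belong to this list. The list's median difference was -0.39, beside -0.12 over all kept genes, and 3 of the 15 measured genes, H1f7, H1f8 and H1f10, are also members. Of the 15, 10 were above background on at least 1 array. Of all 7092 such genes 8.46% were dorsal-high and 17.7% ventral-high. Macroh2a2, a macroH2A variant, read 8.92 in dorsal and 7.54 in ventral tissue, a 2.61-fold difference. H2ab1, a testis H2A variant, read 5.28 and 4.05, a 2.35-fold difference. H4f16, which RefSeq groups with the H4 genes and not with a variant, read 3.92 and 2.58. With its dorsal value at the background mark no fold can be given, so this call rests on values at background. Of the 11, 4 read higher in ventral tissue within 2-fold: the centromeric H3 variant Cenpa by 0.61, H2az1 by 0.63, H3f3b by 0.36 and Macroh2a1 by 0.32 on the log2 scale.

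S phase and proliferation genes were called in both directions. Of 27 kept, 4 were ventral-high, 14.8% against 9.44% of all kept genes, and 2 dorsal-high, 7.41% against 4.88%. The median difference was 0.00, beside -0.12 over all kept genes. Of 28 measured, 26 were above background on at least 1 array. Of all 7092 such genes 17.7% were ventral-high and 8.46% dorsal-high, and their median was 0.03. Prim1, the small primase subunit, read 4.19 in dorsal and 6.77 in ventral tissue, a 5.99-fold difference. Rrm1, of ribonucleotide reductase, Pola1, the catalytic subunit of DNA polymerase alpha, and Mcm4, of the replicative helicase, were 2.55-fold, 2.50-fold and 2.17-fold higher there. Tk1, thymidine kinase, and Pola2, of DNA polymerase alpha, were at least 1.98-fold and 1.31-fold higher in dorsal tissue. Pcna, the DNA polymerase clamp, was at 11.47 on both arrays. Mki67 read 8.43 in dorsal and 8.07 in ventral tissue and Top2a 9.10 and 8.91. Within 2-fold were 21 of the 27, 77.8%, where 85.7% of all kept genes were. Whether the share of cells in S phase differed was not tested.

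**Figure D4:**
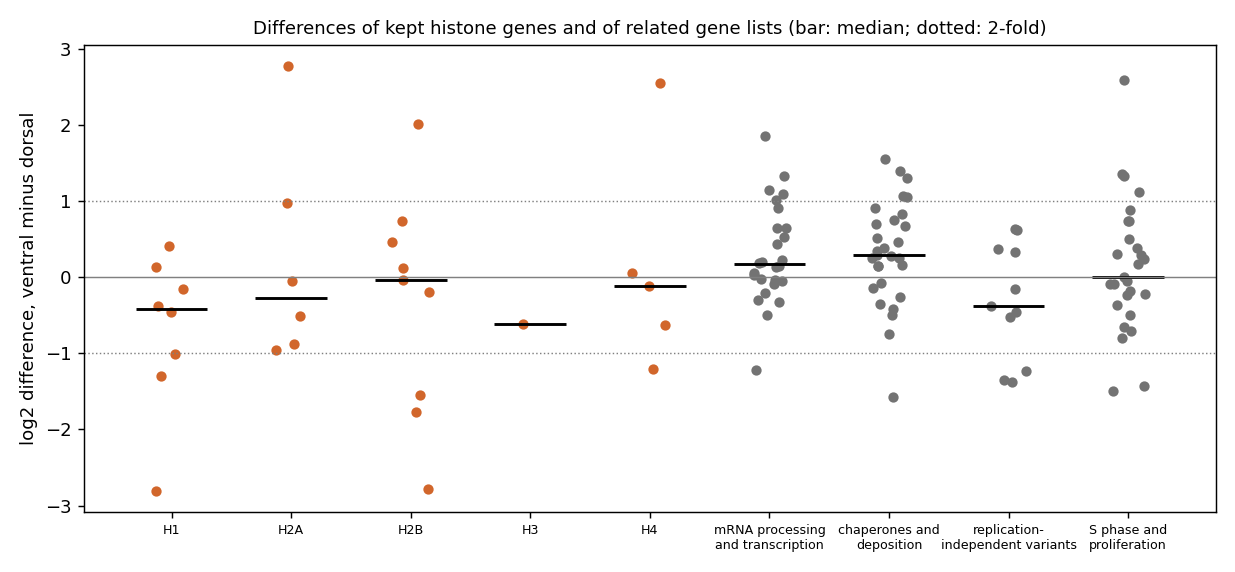
Log2 difference, ventral minus dorsal, of kept histone genes by class (orange) and of 4 lists of related genes (grey), 1 point per gene, with the median as a bar, 0 as a solid line and 2-fold as dotted lines. Linker genes range from -2.80 to 0.41 with a median of -0.42, and the S phase and proliferation list has a median of 0.00.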

How the data were processed

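RNA from the dorsal and ventral pieces, 200 to 1000 pg per the labels' protocols, was amplified with a single-primer isothermal kit and hybridised to the arrays. How the kit primes transcripts that lack a poly(A) tail, as these histone mRNAs do, is not stated in the labels and could affect their measurement. The authors deposited log2 expression values, 1 per Entrez gene number and array; per the submitters' processing notes these were made with Affymetrix Expression Console and RMA. The sources used here give no versions, build or detection calls.

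Of 25429 features, 24675 had 1 symbol in the platform annotation, and 754 had no single symbol and were not used here. Symbols were updated by gene number through a RefSeq table of GRCm38.p6. Each gene's ventral value minus its dorsal value was taken on the log2 scale. A gene was kept if its higher value reached 3.10, the median over named genes of the mean of both arrays. Where the lower value was under the background mark of 3.92, the printed fold is the higher value against that mark and is called a bound. Folds are described at a threshold of 2, with no test.

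The histone genes, lists and rules were chosen with earlier results of these data known. Named genes are members above background and, from each list, up to 6 genes at least 2-fold apart with a value above the mark, with Slbp, Npat and Casp8ap2. Members at background, marker genes, Pcna, Mki67, Top2a and the histone variants within 2-fold were named beyond this rule after their values were seen. Slbp, E2f1 and Mcm2 stand in 2 lists each. Alternatives covered quantile normalization, centring, a loess on level (span 0.3), floors, the fold threshold, the mean and the choice of members. The counting was tested on simulated data. Software was matplotlib 3.10.9, statsmodels 0.14.6, pandas 2.3.3, numpy 2.4.6 and Python 3.11.15.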

Additional observations from a re-analysis of the deposited data

How the results depend on the processing

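With 1 array per tissue, no replicate could be left out, and precision is limited by there being 2 arrays. Both arrays carry the same replicate number and form 1 pair, and 1 pair gives no spread for a paired test. The counts of 3 ventral-high and 7 dorsal-high histone genes of 29, with 1320 and 682 of 13982 genes, became 4 and 9 after quantile normalization, where all genes gave 1161 and 796. After centring on the median of kept genes they were 4 and 6, where all genes gave 1527 and 527. After loess they were 4 and 7, where all genes gave 1387 and 637. At a threshold of 1.5-fold the counts became 5 and 11, with 2286 and 2099 over all kept genes, so the ventral share was near that background. With the floor at 3.92 on the mean of both arrays the 2-fold counts became 2 and 4 of 16, with 1062 and 478 over all genes. How many genes passed that floor is not given here, so these counts are not compared as shares. The median difference of kept members, -0.20, was -0.34 after quantile normalization, -0.079 after centring on the median of kept genes, -0.39 with the floor at 3.92 on the higher array and -0.40 with it on the mean. It was below 0 in every alternative run. Class medians changed sign for H2B, from -0.035 to 0.083 by centring and 0.11 with the floor on the mean, and with the floor on the higher array for H2A, from -0.28 to 0.043, and H4, from -0.12 to 0.058. With the floor on the mean, H2A moved to -0.88. Over the 21 members above background and 3 scalings, 54 of 63 differences kept their side of 2-fold. The 9 others concerned H1f4, below 2-fold after centring or loess at -0.89 and -0.98, and H2ac10, H2ac22 and H2ac11, which passed it. H2bc13 and H4c12, near 0, changed sign under quantile normalization and loess.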
